A study of Mus musculus with 24 samples.

Results

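Among 8 mouse thymic lymphomas with raised chromosome 15 expression, 4 also had raised expression across chromosome 14 (TL12, TL20, TL30 and TL32) and 4 did not (TL18, TL22, TL34 and TL35). These are 8 of the 21 lymphomas and of the 24 libraries in all; the remaining 13 lymphomas and 3 normal thymus libraries served for reference. The groups were chosen by a measured value: for each lymphoma, the median over chromosome 14 genes of the log2 ratio to the mean of normal thymus, with 0.3 as the dividing value. The chromosome 14 values are therefore a description of the groups and are given with no test, and genes on the other chromosomes are reported apart.

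The mice were B6C3F1 females, a cross of inbred strains, labelled with whole-body carbon ions given as 1 dose of 1.6 Gy a week, 4 doses in all, from an age of 4 to 5 weeks. The normal thymus samples carry the same treatment label, and the mark 7W in their titles is not explained. Going by which of the authors' filtered tables holds its column, TL12 is the only Ikzf1-mutated lymphoma of the 8, and the other 7 are unmutated. The age of the mice when the lymphomas were taken is not in the labels used here. Nothing in them states that the lymphomas are from separate mice, and p-values here cover only the spread among the sequenced samples. No sample has a measurement of DNA copy number here, and every statement on a chromosome is about RNA.

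Mouse thymic lymphomas are tumours of developing T cells and often carry an extra copy of chromosome 15, which holds the oncogene Myc. Chromosome 14 holds the retinoblastoma gene Rb1, which restrains entry into the cell cycle, the actin-bundling protein gene Lcp1, the oligosaccharyltransferase subunit gene Dad1 next to the T-cell receptor alpha locus, and many housekeeping genes of chromatin, nuclear transport and protein turnover. A gain of a whole chromosome usually shifts the RNA of most of its genes by a small amount in the same direction, whereas single genes also follow the state of the cell.

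Sequencing depth ran from 16 to 25.76 M counts a library in the raised group (M stands for 1e+06), from 17.73 to 32.2 M in the not raised group and from 24.54 to 27.54 M in thymus. No pair of the 8 lymphomas agreed within sampling noise. T cell markers (8 genes) summed to 3196 to 5370 CPM (counts scaled to a library of 1e+06) in the raised group, 3697 to 4879 in the not raised group and 6797 to 7384 in thymus. The summed markers of macrophages (16 genes), neutrophils (10), B cells (8), erythroid cells (9, of which 8 are in the table), fibroblasts (11), endothelium (8), thymic epithelium (11), natural killer cells (8) and dendritic cells (7) also overlapped between the groups. In bulk RNA, fewer cells of a type and less RNA per cell cannot be told apart.

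Most of chromosome 14 was higher in the raised group. The chromosome 14 median, over 309 genes with a mean of at least 10 CPM, was 0.582 in TL12, 0.333 in TL20, 0.623 in TL30 and 0.380 in TL32 (log2 ratio to thymus). It was 0.035 in TL18, 0.130 in TL22, 0.030 in TL34 and -0.051 in TL35. The group means were 0.480 ± 0.144 and 0.036 ± 0.074 (SD, n = 4 each). The nearest values on either side of the dividing value were TL20 at 0.333 and TL22 at 0.130, so the raised group reaches down to a member that lies closer to TL22 than to TL30. The other 13 lymphomas had 0.002 to 0.192, and each thymus library, set against the mean of the other 2, had -0.065 to 0.038.

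Set against the not raised lymphomas, the lower end of the distribution of chromosome 14 genes was also higher in the raised ones. The 10th percentile was -0.224 in TL12, -0.664 in TL20, -0.528 in TL30 and -0.382 in TL32. It was -1.192 to -0.739 in the not raised group and -0.306 to -0.097 in thymus. Here each thymus library is part of the mean it is set against, which draws its values toward 0. The lower end in TL20, TL30 and TL32 lay below these thymus values, but with that unlike reference no comparison is drawn. In TL12, 78.6% of the 309 genes lay above all 3 thymus libraries, in TL20 63.4%, in TL30 74.8% and in TL32 68.6%. In the not raised group the share was 45.6% in TL18, 51.1% in TL22, 46.9% in TL34 and 41.1% in TL35. Off chromosome 14 the share was 43.8% in TL12, 40.7% in TL20, 46.6% in TL30 and 45.1% in TL32. For TL18, TL22, TL34 and TL35 it was 40.5%, 46.0%, 47.6% and 42.3%. Every raised lymphoma had a larger share on chromosome 14 than every not raised one, which follows from how the groups were chosen.

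**Figure D1:**
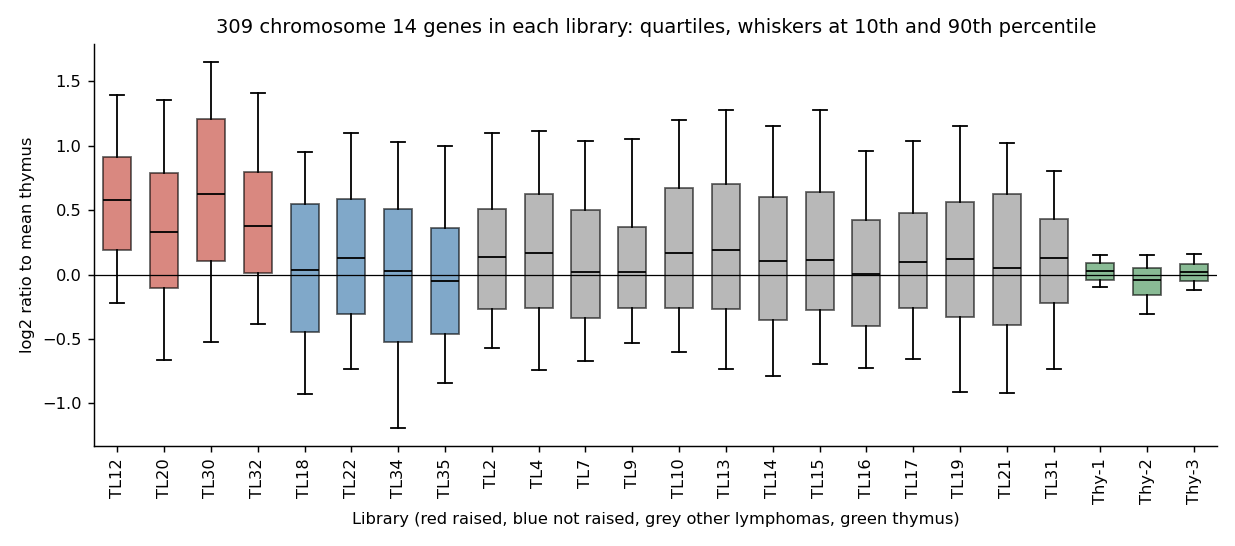
Log2 ratio of each of 309 chromosome 14 genes to the mean of the 3 thymus libraries (y axis), by library (x axis): boxes give the quartiles and whiskers the 10th and 90th percentiles. The 4 raised lymphomas (red) have medians of 0.333 to 0.623, the 4 not raised (blue) -0.051 to 0.130, the other lymphomas (grey) 0.002 to 0.192, and thymus (green) lies near 0.

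Gene by gene, the mean of the raised group was above that of the not raised group for 287 of the 309 genes (92.9%), against 50.5% of 8554 genes off chromosome 14. The median difference between the group means was 0.45 on the log2 scale (quartiles 0.23 and 0.63), against 0.00 off chromosome 14 (quartiles -0.19 and 0.21). In 81 genes (26.2%) every raised lymphoma was above every not raised one, and in 0 genes below. Off chromosome 14, 1.77% of genes were apart in the first way and 2.67% in the second. These counts follow from how the groups were chosen and nothing is read from them. Without TL20, the lymphoma nearest the dividing value, 135 of the 309 genes were apart upward and 2 downward; leaving out any of the other 7 gave 86 to 103 upward. Of all 824 chromosome 14 symbols in the count table, 406 passed the filter on low counts and 309 the stricter level used here.

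Chromosome 15 was raised to a similar level in both groups, by the choice of the 8. Its median over 367 genes was 0.576 in TL12, 0.455 in TL20, 0.562 in TL30 and 0.538 in TL32. It was 0.625 in TL18, 0.485 in TL22, 0.607 in TL34 and 0.5 in TL35. The groups overlapped and differed by -0.022 (exact permutation test, two-sided, p = 0.6857, adjusted p = 0.9306 over 19 chromosomes). Since all 8 were chosen for raised chromosome 15, nothing is read from the test on this chromosome. In TL12 and TL30 the chromosome 14 median was above that of chromosome 15, and in TL20 and TL32 it was below.

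On the other chromosomes the groups overlapped with the settings used here, and none passed the test. The smallest p-values of the exact permutation test were 0.05714, for chromosome 10 (0.114 higher in the raised group), chromosome 11 (a difference of -0.097) and chromosome 19 (-0.111), each with an adjusted p of 0.3619; 4 samples against 4 cannot give less than 0.02857. Under other settings the groups were just apart on these 3 chromosomes, with that smallest p and adjusted p-values of 0.2714 to 0.5429: on 11 and 19 with genes of at least 1 CPM or DESeq2 size factors, on 10 with TPM or without the third thymus library, and on 19 without the second thymus library or centred on genes off chromosomes 14 and 15. The groups were also apart without TL12 (on 10, 11 and 19), without TL18 (on 10 and 11) and without TL35 (on 19), each at an exact p of 0.05714. Single lymphomas reached a median of at least 0.2 on other chromosomes: TL32 on X (0.304), 18 (0.255), 12 (0.228) and 1 (0.201), TL34 on 16 (0.368) and X (0.252), TL35 on 18 (0.439), TL30 on 4 (0.239), TL20 on 10 (0.238) and 7 (0.211), and TL22 on 5 (0.222). None of these was shared by a whole group.

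**Figure D2:**
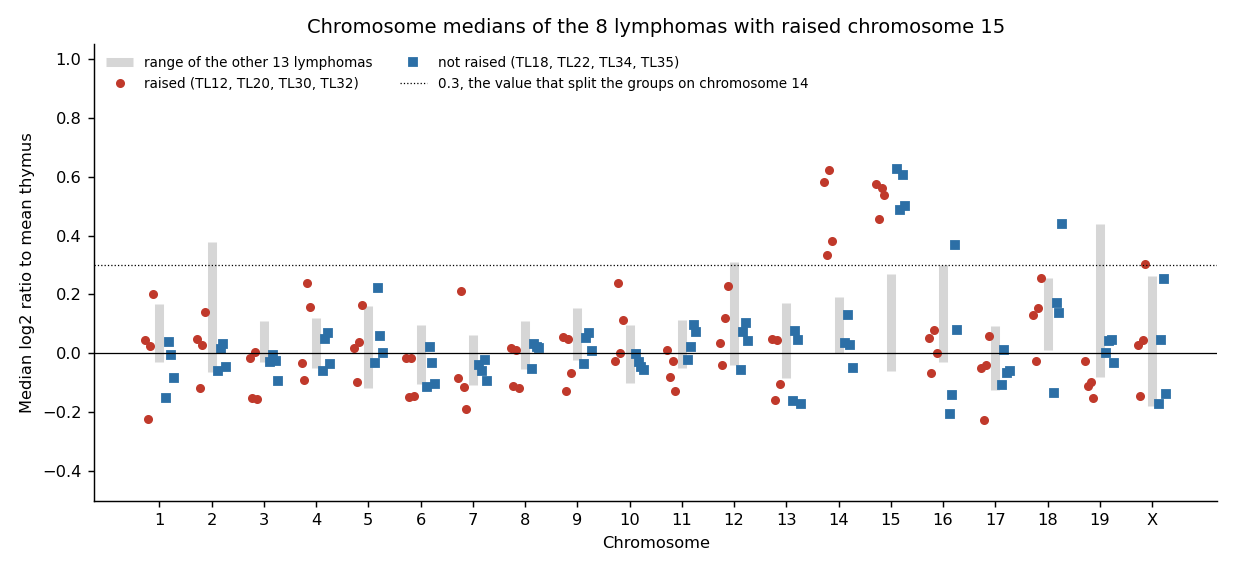
Median log2 ratio to mean thymus (y axis) of each chromosome (x axis) in the 8 lymphomas, with the range of the other 13 lymphomas in grey. Chromosome 14 separates the raised lymphomas (red, 0.333 to 0.623) from the not raised (blue, -0.051 to 0.130), and all 8 lie at 0.455 to 0.625 on chromosome 15.

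The higher mean was found in every measured window of chromosome 14. In windows of 5 Mb with at least 5 measured genes (16 windows, 297 genes, GRCm38), the raised mean was higher in 16 of 16, by 0.32 to 0.62. In 11 every raised lymphoma was above every not raised one. Stretches from 35 to 45, 80 to 100 and 105 to 115 Mb held too few measured genes. These counts follow from how the groups were chosen, and those of other chromosomes are not given here. The window medians were below 0 in none of the windows for TL12 and TL30, in 1 for TL32 and in 3 for TL20, against 7 in TL18, 7 in TL22, 8 in TL34 and 10 in TL35. Among the windows in which the groups overlapped was that from 70 to 75 Mb, with 22 genes and Rb1 among them. There TL12 had 0.492, TL30 0.288 and TL32 0.043, but TL20 -0.270. In the not raised group the same window had 0.049 in TL18, -0.171 in TL22, -0.423 in TL34 and -0.285 in TL35.

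**Figure D3:**
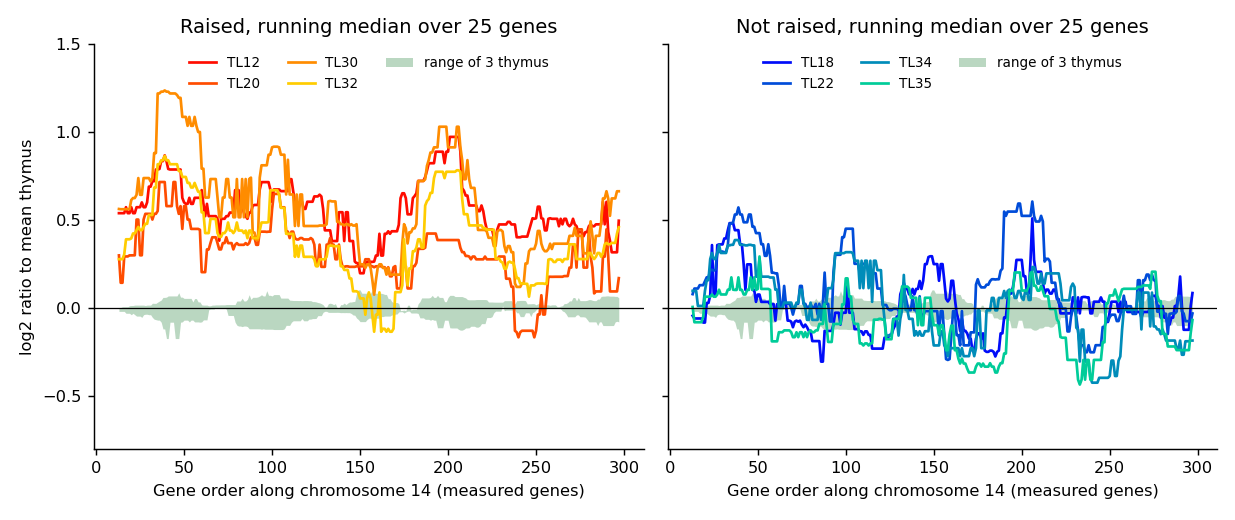
Running median over 25 neighbouring chromosome 14 genes of the log2 ratio to mean thymus (y axis), by gene order along the chromosome (x axis), for the raised lymphomas (left) and the not raised (right), with the range of the 3 thymus libraries in green. The raised lines stay mostly above 0 along the chromosome, with dips below 0 in TL32 and TL20, while the not raised lines cross 0 repeatedly.

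The 3 genes named as markers of chromosome 14 did not separate the groups one by one. Rb1 (chromosome 14, 73183673 to 73325822) had 180.5 CPM in TL12, 40.2 in TL20, 110.5 in TL30 and 109.1 in TL32. In the not raised group it had 73.7 in TL18, 127.5 in TL22, 84.6 in TL34 and 89.6 in TL35, and in thymus 140.2, 96.8 and 142.8. TL12 was the highest and TL20 the lowest of the 8, and the log2 fold change of the raised over the not raised group was 0.22 (SE 0.38). Lpar6 and Rcbtb2 overlap the span of Rb1, and since the strand of counting is not given here, reads of overlapping genes cannot be told apart.

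Lcp1 (75131101 to 75230842) had 434.8 CPM in TL12, 689.9 in TL20, 1361 in TL30 and 1113 in TL32, and 912.2 in TL18, 589.4 in TL22, 631 in TL34 and 756.5 in TL35. TL12 lay within the range of thymus (412 to 483.2) and the other 7 lymphomas above it (log2 fold change 0.31, SE 0.34). Dad1 (54235479 to 54254104) had 152.6, 115, 181.8 and 136.1 CPM in TL12, TL20, TL30 and TL32, and 220.4, 113.4, 116.1 and 154.9 in TL18, TL22, TL34 and TL35. Its highest value was in a not raised lymphoma, TL18, and the log2 fold change was -0.06 (SE 0.25). The label of raised chromosome 14 thus describes the median of many genes and not these 3.

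The chromosome 14 genes are given next by role. Over all 309 genes, 92.9% had a higher mean in the raised group and 26.2% were apart, and no role group was tested against these shares. Of the chromatin and DNA repair genes, all 16 measured members had a higher mean in the raised group, 8 were apart, and the median difference was 0.50. Top2b, the beta form of DNA topoisomerase II, had 962.6, 603, 724.6 and 726.2 CPM in TL12, TL20, TL30 and TL32, and 331.2, 513.3, 395 and 448.8 in TL18, TL22, TL34 and TL35 (log2 fold change 0.83, SE 0.19). Bap1, a deubiquitinase of histone H2A, had 219.5, 194.5, 220.8 and 187.5 CPM against 135.4, 146.6, 146.4 and 153.9 in the same order (0.49, SE 0.11). All 4 raised lymphomas were above thymus for Bap1 (144.2 to 160.4 CPM) and none of the not raised were.

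For Chd8, a chromatin remodeller, the raised lymphomas had 286.1 to 433.4 CPM and the not raised 209.8 to 226.5 (0.64, SE 0.15). Prmt5, an arginine methyltransferase, had 276 to 373.1 CPM against 220.6 to 248.7, and both groups were above thymus (103.9 to 126.8). Kat6b, a histone acetyltransferase, had 38.1 to 97.2 CPM against 21.7 to 34.9. The base excision repair enzyme Apex1 showed the smallest difference of the 16 genes, with 112.7 to 220.4 CPM against 133 to 188.6 (0.21, SE 0.22), and its lowest value was in TL12. The size of the difference thus varied between members that share a role.

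Genes of nuclear transport and RNA were higher on average in all 16 measured members, with 5 apart and a median difference of 0.30. Mbnl2, a regulator of splicing, had 298.8, 171.9, 234 and 134.5 CPM in TL12, TL20, TL30 and TL32, and 79.3, 128.1, 34.9 and 12.7 in TL18, TL22, TL34 and TL35 (1.72, SE 0.62). It lay above thymus (85 to 108.3 CPM) in all 4 raised lymphomas. The importin gene Ipo4 had 127 to 166.6 CPM against 74.8 to 116.3, with thymus at 31.5 to 35.3. Hnrnpc, a core protein of RNA packaging, hardly differed, with 593.2 to 709.1 CPM against 594.4 to 649.8 (0.02, SE 0.12).

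Genes of the proteasome and protein turnover were higher on average in 14 of 15, with 3 apart (Psmc6, Fbxo34 and Mycbp2) and a median difference of 0.49. Psmc6, an ATPase of the 19S cap, had 224.2 to 261.7 CPM in the raised group and 177.4 to 212.6 in the not raised group, with thymus at 139.4 to 144.9. Psmb5, a catalytic subunit of the core, overlapped, with 129 to 179.2 CPM against 116.8 to 175.6 (0.12, SE 0.17). The activator genes Psme1 and Psme2 also overlapped, with log2 fold changes of 0.08 (SE 0.20) and 0.12 (SE 0.24).

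Genes of metabolism and mitochondria were higher on average in 12 of 12, with 3 apart and a median difference of 0.41. Glud1, glutamate dehydrogenase, had 240.2 to 308.8 CPM against 171.8 to 222.5, and thymus had 138.7 to 159.3. Bnip3l, a receptor for the removal of mitochondria, had 189.4 to 273 CPM against 120.7 to 159.1, and here the not raised group lay below thymus (167.8 to 181.8). The transketolase gene Tkt reached 1106 CPM in TL20 and 1075 in TL30 but 602.2 in TL12, below the lowest not raised value of 628.7. Its fold change was 0.37 (SE 0.21).

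The list of ribosome, translation and folding also holds genes with other roles, Sec24c, Cog3 and Itm2b among them. Its members were higher on average in 12 of 15, with 3 apart and a median difference of 0.34. These counts are therefore not a measure of ribosome genes alone. Sec24c, a coat protein of vesicles that leave the endoplasmic reticulum, had 364.6 to 531 CPM against 254.2 to 311.1 (0.60, SE 0.15). Cog3 of the Golgi had 73.7 to 113 CPM against 55.2 to 61.6. The mitochondrial ribosome gene Mrps16 overlapped, with 51.5 to 81.8 CPM against 56.9 to 74.1 (0.02, SE 0.17), and Itm2b, next to Rb1, had its highest value in TL18 (1189 CPM).

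Of the cell cycle genes of chromosome 14, 11 of 13 were higher on average, 2 were apart, and the median difference was 0.25. Dlgap5, a protein of the mitotic spindle, had 122.3, 138.9, 162.7 and 119.3 CPM in TL12, TL20, TL30 and TL32 and 68.3, 114.4, 101.1 and 93.9 in TL18, TL22, TL34 and TL35 (0.52, SE 0.18). The kinase gene Nek4 had 26.5 to 31.6 CPM against 18.6 to 19.98, and all 8 lymphomas lay above thymus (8.64 to 11.9). The phosphatase gene Cdkn3 had lower values than thymus (14.8 to 18.6 CPM) in all 8, with 6.27 to 11.2 against 7.69 to 12.6.

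Genes of T-cell signalling and the cytoskeleton had differences from -1.33 to 1.26: 15 of 17 were higher on average but 1, Prkcd, was apart (median difference 0.44). Prkcd, a protein kinase C, had 93.4 to 132.8 CPM against 79.7 to 92.7 (0.45, SE 0.13). Ptk2b, the kinase Pyk2, had 3.16 CPM in TL34 but 56 to 85.4 in the other 3 not raised lymphomas and 44.5 to 140.5 in the raised ones. Tnfsf11, the cytokine RANKL, went the other way on average, with 1.61 to 8.42 CPM against 6.52 to 23.0 (-1.47, SE 0.62). Camk2g, a calmodulin-dependent kinase, had 114.2 CPM in TL12 and 194.2 to 347.3 in the other raised lymphomas, against 82.9 to 118.2.

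Several of the largest and lowest differences on chromosome 14 came with 1 or 2 lymphomas far from the others. Of the 309 genes, 17 differed by more than 1 on the log2 scale upward and 4 downward. Blk, a kinase of B cells and some T cells, had 72.8 CPM in TL30 and 29.5 in TL32 but 1.36 in TL12 and 0.383 in TL20. Mtmr9, a phosphatase-like protein, had 1321 CPM in TL30 and 337.6 in TL32 against 80.97 to 245.1 in the not raised group. Zfp503 had 28.9 to 75.6 CPM in all 4 raised lymphomas, 18.79 and 19.04 in TL18 and TL22, and at most 0.153 in TL34 and TL35. At the other end, Dock5 had 75.2 CPM in TL18 and 2.58 to 22.02 in the other 7, and Epsti1, an interferon-induced gene, had 1.95 CPM in TL12 and 31.4 to 49.7 in the other 7.

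Against thymus, 151 of the 309 genes were above the thymus range in every raised lymphoma and 13 below it in every one. In the not raised group the counts were 81 and 69, and in the other 13 lymphomas 47 and 26. A condition on all of 13 is stricter than on all of 4, so the last counts are not comparable with the others. The same counts off chromosome 14 are not given here. The median SD among the members of a group was 0.33 on the log2 scale in the raised group and 0.26 in the not raised group. The spread within a group was therefore of a size with the median difference of 0.45, and 81 of 309 genes were apart.

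Off chromosome 14, no gene passed the test for a difference between the groups. With edgeR's quasi-likelihood test and Benjamini-Hochberg adjustment over 11745 genes, 0 of 11244 genes placed elsewhere had an adjusted p under 0.05 (0%), and the smallest was 0.6473. At an unadjusted p under 0.05 there were 713 genes (6.34%), 330 with higher and 383 with lower values in the raised group; without TL18 there were 454. DESeq2 called 29 genes, 15 higher and 14 lower, with a smallest adjusted p of 1.74e-05, and limma-voom called 0. A fit of all 24 libraries, which shares 1 estimate of the spread, called 3 genes (Mllt4, Tomm22 and 6330416G13Rik), and leaving out TL12 gave 1 call (Mllt4). The values that follow are therefore mostly descriptions of genes that did not pass. On counts simulated from these 8 libraries, the edgeR test recovered 12% of genes changed 2-fold and 74% of those changed 4-fold. It also called 6 unchanged genes. A gene that did not pass can thus still differ between the groups.

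The smallest p belonged to Pik3r5, a regulatory subunit of the gamma class of PI3 kinase, on chromosome 11. It had 118.8 CPM in TL12, 105.6 in TL20, 43.3 in TL30 and 108.4 in TL32, and 20.3 in TL18, 33.1 in TL22, 23.4 in TL34 and 28.9 in TL35. All 8 lay below thymus (142 to 151.7 CPM), and the groups did not overlap (log2 fold change 1.83, SE 0.32, edgeR p = 0.000325, adjusted p = 0.6473, DESeq2 adjusted p = 0.000212). Zfp512b had 95.4, 96.9, 92.0 and 88.5 CPM in the raised group against 50.0, 67.4, 57.5 and 58.6, again below thymus in all 8 (0.67, SE 0.13).

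Mllt4, which encodes the junction protein afadin, had 281.8 CPM in TL20, 167.8 in TL30 and 70.4 in TL32 but 1.44 in TL12. The not raised group had 1.03 to 1.63 CPM, thymus 6.02 to 7.66, and the other 13 lymphomas 1.57 to 343 with a median of 154.2. TL12 thus lay with the not raised group, and without it the edgeR adjusted p of Mllt4 was 0.01405 at a log2 fold change of 7.05. That p rests on leaving out the raised lymphoma with the low value. With TL12 kept, Mllt4 did not pass in the edgeR test of the raised against the not raised lymphomas. Ly6k showed the same kind of split by another lymphoma, with 336.6, 180.6 and 151.6 CPM in TL12, TL20 and TL32, 0.114 in TL30 and at most 2.29 in the not raised group.

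Lower values in the raised group were found for Taf15, an RNA-binding protein, with 90.6 to 143.8 CPM against 166.7 to 186.9 (-0.68, SE 0.15). Ndufa5 of respiratory complex I had 37.5 to 58.2 CPM against 61.5 to 91.9 (-0.84). Il1rl1 and Retnlg were low in all 8, at up to 0.256 and 0.803 CPM in the raised group and up to 2.11 and 7.32 in the not raised group; Retnlg is among the neutrophil markers. Tbc1d14 had 103.3 to 139.6 CPM against 68.6 to 89.2, and Tvp23a 2.38 to 8.19 against 0.318 to 1.17. All of these genes had an edgeR adjusted p of 0.6473, and of the 10 genes with the smallest p DESeq2 called all except Il1rl1.

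Of the lymphoma genes named by rule, those given here (Myc, Ikzf1, Notch1, Bcl11b, Trp53, Cdkn2a, Grb10 and Ddc) overlapped between the groups. Myc on chromosome 15 had 193.5, 526.8, 294.7 and 328.2 CPM against 174.8, 298, 313.1 and 143.8, above thymus (72.7 to 93.5) in all 8 (0.54, SE 0.35, adjusted p = 0.6977).

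Notch1, a receptor that drives early T-cell growth, split across the groups: 52.7 CPM in TL12, 50.9 in TL18 and 177.9 in TL35, against 964.5 to 1457 in the other 5 and 219 to 286.3 in thymus. Cdkn2a, a cell cycle inhibitor, had 76 CPM in TL32 and 16 in TL22 and at most 6.93 in the other 6. Ikzf1 had its highest value in TL12 (1482 CPM), the lymphoma of the mutated set, and 478.9 to 1015 in the other 7. Bcl11b lay below thymus in all 8 (175.2 to 458.2 against 961.9 to 984.5 CPM), and Trp53 above it (240.9 to 323.7 against 185.1 to 194.5). Ddc had 22.7 to 141.3 CPM against 56.6 to 109.1, and Grb10 0.064 to 9.48 against 0.229 to 21.98, so both overlapped widely.

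**Figure D4:**
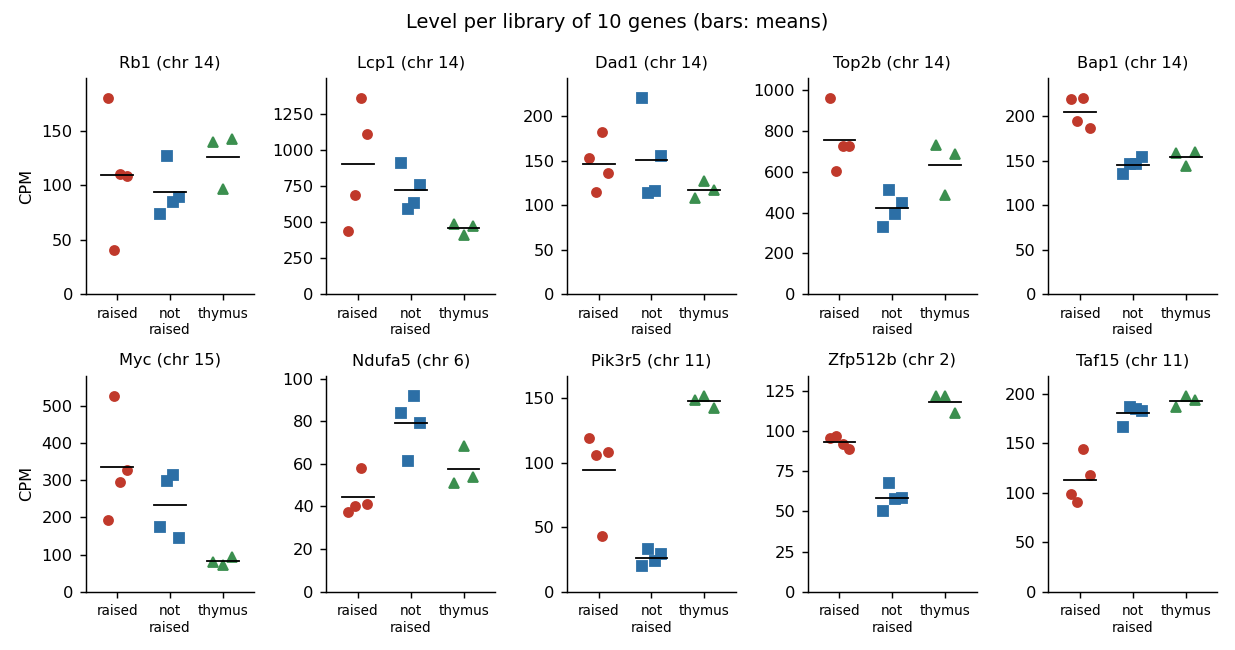
CPM (y axis, from 0) of 10 genes in each raised lymphoma (red), not raised lymphoma (blue) and thymus library (green); bars are means. Rb1, Lcp1, Dad1 and Myc overlap between the lymphoma groups, while Top2b and Bap1 of chromosome 14 and Ndufa5, Pik3r5, Zfp512b and Taf15 of other chromosomes do not.

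Of 16 gene lists off chromosome 14, none held a gene past the adjusted threshold; over all 11244 genes, 5615 had a positive fold change and the median was -0.0008. The lists closest to the chromosome 14 markers had medians below 0, that of the Rb family turning positive with TPM values (0.03) and without TL20 (0.04). In the Rb family with its cyclins, kinases and E2F factors, 11 of 26 fold changes were positive (median -0.05), and 0 had an unadjusted p under 0.05. Among DNA replication and E2F target genes, 1 of 31 was positive (median -0.29). Of these, Fen1, the flap endonuclease, had 108.2 to 170.5 CPM against 142.5 to 244.2, and Gins4 of the replicative helicase 51.3 to 60.7 against 65.3 to 78.4, with an unadjusted p of 0.0261 and 0.0318. This median was -0.16 without TL34, -0.19 without TL20 and -0.46 without TL30, and 4 of 31 fold changes were positive with TPM values. TPM values raised the median of all genes off chromosome 14 to 0.11, and the list medians below are to be read against that shift where TPM is named.

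The mitosis list had 3 of 22 positive (median -0.21; -0.34 without TL30 and -0.10 with TPM), the oligosaccharyltransferase subunits apart from Dad1 1 of 11 (-0.33; -0.21 with TPM), the actin genes apart from Lcp1 8 of 24 (-0.14; -0.08 without TL18 and -0.03 with TPM), and the proteasome subunits off chromosome 14 3 of 31 (-0.19; -0.12 without TL12 and -0.08 with TPM). The positive median of the chromosome 14 list of proteasome and protein turnover followed from the choice of the groups. That list also holds genes outside the proteasome, so no comparison is drawn with it. Among protein folding genes 3 of 19 were positive (-0.47; -0.26 without TL18, -0.30 without TL20 and -0.29 with TPM): Hsph1, a chaperone, had 96.4 to 158.8 CPM against 159.5 to 303.6, and Calr, calreticulin, 562.2 to 768.5 against 755.3 to 1428. Ribosome biogenesis genes induced by Myc had 8 of 24 positive (-0.08; 0.01 with TPM, 0.04 without TL12 and 0.05 without TL34).

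Genes of double-positive thymocytes, the stage with both Cd4 and Cd8, had 12 of 14 positive fold changes and a median of 0.62. That median rested on TL12: without it 6 of 14 were positive and the median was -0.09. Themis, a signalling protein of that stage, had 1037 CPM in TL12 and 338.8 to 508.6 in the other raised lymphomas, against 206.4 to 369.6. T-cell receptor genes had 14 of 21 positive (0.19; 0.03 without TL32, 0.06 without TL12, 0.09 without TL34, 0.32 without TL20 and 0.31 with TPM). Early thymocyte and Notch target genes had 11 of 14 positive (0.34), which moved to 7 of 14 and 0.11 without TL20, 0.12 without TL35, 0.17 without TL18, 0.23 without TL32, 0.64 without TL12, 1.01 without TL22 and 0.59 with TPM, and mature thymocyte genes 6 of 15 (-0.21; 0.21 without TL22, -0.05 without TL20, -0.10 without TL18 or TL35, -0.39 without TL32, -0.44 without TL34 and 0.04 with TPM).

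Interferon response genes had 3 of 21 positive fold changes and the lowest median of the lists, -0.89 (5 of 20 and -0.52 with TPM values and a pseudocount of 1). Mb21d1, which encodes the DNA sensor cGAS, had the smallest p of the list, and its groups were apart: 32.9, 39.3, 50.0 and 31.8 CPM against 69.9, 62.8, 60.9 and 54.0, with all 8 above thymus (7.01 to 9.46) and an edgeR p of 0.00487. Ifit3 had 0.552 to 0.851 CPM in the raised group, 2.64 in TL18, 0.688 in TL22, 1.12 in TL34 and 6.15 in TL35. Oas1a likewise had 9.27 CPM in TL18 and 4.70 in TL35 and at most 1.43 in the other 6. In TL18 and TL35 the summed B cell markers were 124 and 239.1 CPM (14.78 to 85.26 in the other 6). The B cell list holds Blk of chromosome 14, which made up most of the sum in TL30 (85.26). The summed dendritic cell markers were 50.8 in TL18 and 40.1 in TL35 (11.75 to 25.46 in the other 6). Macrophage markers did not follow this split, with sums of 785.2 in TL18 and 384.9 in TL35 (364.9 to 1023 in the other 6). The summed natural killer markers were 43.75 in TL18, 42.59 in TL35 and 39.14 in TL34, against 14.28 in TL22 and 9.196 to 15.99 in the raised group; the part of such cells in these values was not tested. The list's median was -0.62 without TL18 and -0.67 without TL35.

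The p53 target genes had 7 of 17 positive (-0.27; 0.36 without TL22, -0.13 without TL20, -0.04 without TL32 and -0.07 with TPM), the Bcl2 family and caspases 12 of 19 (0.05; -0.10 without TL32 and -0.04 without TL34), and the lymphoma oncogenes and suppressors 19 of 31 (0.10; 0.02 without TL12, 0.06 without TL32, 0.21 without TL20 and 0.21 with TPM). Il7r, the interleukin-7 receptor that supports early T cells, had 358.8 to 455.8 CPM in the raised group and 304.6, 297.8, 189.3 and 35.5 in TL18, TL22, TL34 and TL35, so the groups were apart, with an adjusted p of 0.6794. Ptprc, the leukocyte phosphatase CD45, had 1132 to 1939 CPM against 773.6 to 1348 (0.70, SE 0.22, adjusted p = 0.6473).

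**Figure D5:**
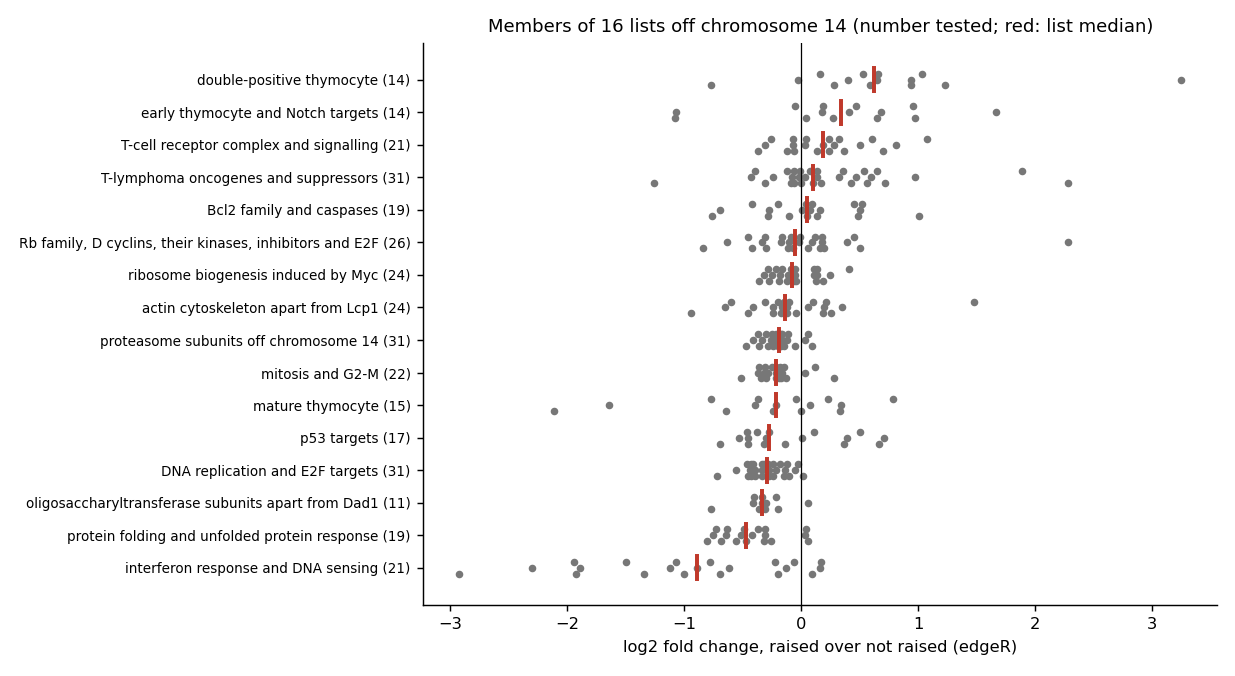
Log2 fold change of the raised over the not raised lymphomas (x axis, edgeR) for the members of 16 gene lists off chromosome 14 (y axis, with the number tested); red bars are list medians. Medians run from -0.89 (interferon response) to 0.62 (double-positive thymocyte), and no member passed the adjusted threshold.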

How the data were processed

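Poly(A) RNA of lymphoma cells or thymocytes was sequenced, and the labels give 1 batch date throughout. Reads were handled with HTSeq 0.6.1, HISAT2 2.0.1, cutadapt 1.9.1, edgeR and SAMtools on GRCm38.p6, per the submitters' processing notes. Settings and the strand counted were not given there. Raw counts were deposited by the authors for 21878 gene symbols in 24 libraries together with TPM values, used as an alternative. Symbols were placed with GENCODE M21 and, for 749, RefSeq names (97.6% of symbols, 99.6% of counts).

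CPM were scaled by TMM. Log2 ratios to mean thymus used a pseudocount of 0.5 CPM and genes with a mean of at least 10 CPM. The 8 lymphomas were compared, 4 against 4, with edgeR 4.0.16 in R 4.3.3 (filterByExpr, glmQLFit, glmQLFTest, Benjamini-Hochberg over all genes tested, threshold 0.05), which was tested on simulated data. Fold changes of chromosome 14 genes come from the same fit, without their p. "Apart" means that all members of one group exceed all members of the other. Alternatives were DESeq2 1.42.0, limma 3.58.1 (voom, and log2(TPM + 1) or log2(TPM + 0.1)), no filter, other scalings, other CPM minima, all libraries in the fit and leaving out each lymphoma.

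The members and lists were chosen with earlier results of these data known. The text names Rb1, Lcp1, Dad1, members of the chromosome 14 role lists, lymphoma genes, the 10 smallest p off chromosome 14, up to 3 members a list and extremes of chromosome 14; numbered gene models, receptor segments and 3 symbols changed to dates were left unnamed by this rule. 6330416G13Rik and Tomm22 were named after their values were seen, as was the choice among members. Results for some genes that the rule names are not reported here.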

Additional observations from a re-analysis of the deposited data

Results flagged for a closer look

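In 13 of 124 groups of 4 lymphomas examined, 1 member lay far from the other 3 (Dixon's test at the 95% level). Chance gives about 1 in 20 such groups where genes are not chosen by their values. Some genes here were named for extreme differences or a small p, so no excess is read from the count. In the raised group TL12 stood apart for Nynrin (54.5 CPM, next 1.08), Tvp23a (8.19, next 3.01) and Epsti1 (1.95, next 38.2). TL30 stood apart for Pck2, the mitochondrial phosphoenolpyruvate carboxykinase (75.2 CPM, next 15.5), TL32 for Cdkn2a (76, next 6.93) and TL20 for Retnlg (0.803, next 0.384).

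In the not raised group TL22 stood apart for Cdkn2a (16 CPM, next 1.2), Adam2 (8.83, next 0.093), Ly6k (2.29, next 0.372) and Stc1, the hormone stanniocalcin (24.3, next 76.4). TL34 had the lowest Pck2 (16.4 CPM, next 56.7) and TL18 the highest Lgals3, which encodes galectin-3 (85.2, next 35.6). TL18 also had the lowest chromosome 8 median (-0.05, next 0.02).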

How the results depend on the processing

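The difference of 0.44 between the groups' chromosome 14 medians stayed between 0.38 and 0.54 under all alternatives, and the groups remained apart in each. The groups were chosen by this value, so this is a description. Leaving out 1 lymphoma could not have made them overlap. The number of raised lymphomas at or above 0.3 fell to 3 of 4 with genes of at least 1 CPM and to 2 of 4 with TPM, where the lowest raised median was 0.15 and the highest not raised -0.03. With each library centred on genes off chromosomes 14 and 15, an alternative added after seeing the data, the raised medians were 0.576, 0.408, 0.596 and 0.364. On chromosomes other than 14, none passed the adjusted threshold in any setting. The chromosome 15 difference of -0.02 became 0.09 with TPM (exact permutation p = 0.1714) and lay between -0.04 and 0.00 leaving out 1 lymphoma. Calls off chromosome 14 numbered 29 with DESeq2, 3 with all 24 libraries, 0 to 1 leaving out 1 lymphoma, and 0 with limma-voom, TPM, no filter and scaling on genes off chromosome 14; the unadjusted count was 454 to 1429. Of 283 fold changes of 19 named genes under alternatives, 265 kept direction and side, 11 passed the threshold and 7 changed sign: Trp53 was 0.06 with TPM and -0.14 to 0.01 leaving out 1 lymphoma, and Ddc -0.55 to 0.22. The cause was not tested. At 16 to 32.2 M counts a library, values well below 1 CPM rest on few counts. No paired analysis was run, because the labels mark no pairs of lymphomas between the groups.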
